A study of Mus musculus with 6 samples.

Results

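The 9 genes described here encode phosphatases that act at the neuronal synapse, though not only there, and proteins that hold those phosphatases in check. They are Ppp3ca, Ppp3cb and Ppp3r1 (subunits of calcineurin), Rcan1 and Rcan2 (calcineurin regulators), Ppp1ca (a catalytic subunit of protein phosphatase 1, PP1), Ppp1r1a and Ppp1r1b (PP1 inhibitors) and Ptpn5 (the tyrosine phosphatase STEP). They were chosen by gene symbol, with earlier results of these data known. All 9 were among the 25896 symbols in the files, and all 9 were among the 17405 genes with enough counts to be tested.

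Messenger RNA of the hippocampus of male C57BL/6 mice aged 3 months was sequenced in 6 libraries, each from the pooled RNA of 3 mice. The 3 Dicer1-ifKO libraries came from Dicer1 flox/flox mice that also carried CaMKIIa-creERT2, a recombinase that tamoxifen activates and that the CaMKIIa promoter restricts to excitatory forebrain neurons. The 3 WT libraries came from Dicer1 flox/flox mice without the recombinase. Both groups received tamoxifen and were killed 3 weeks later, so the comparison asks which mRNAs differ after removal of Dicer1, the enzyme that produces mature microRNAs, from adult excitatory neurons. Glia and other cells in which that promoter is silent keep Dicer1 and contribute to the RNA, and loss of Dicer1 cannot be told apart from effects of the recombinase, which WT mice lacked.

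Counts over 1 transcript per gene summed to between 15409074 and 20677845 in the Dicer1-ifKO libraries and between 11832794 and 16125481 in the WT libraries. Dicer1 itself stood at 58.2, 63.0 and 58.0 CPM (read counts scaled to library size) in Dicer1-ifKO replicates 1, 2 and 3, against 55.6, 62.0 and 55.8 CPM in WT replicates 1, 2 and 3, and its value covers the whole gene, so it does not check the deletion of the floxed part, for which recombination was tested by qRT-PCR per the labels. All 11 marker genes listed for hippocampal neurons were detected, at a sum of 5240 to 5591 CPM in Dicer1-ifKO and 5095 to 5213 CPM in WT. Camk2a made up the larger part, at 3497 to 3713 CPM in Dicer1-ifKO and 3279 to 3394 CPM in WT. Of the 11, 1 passed the test described below, Rgs14 (lower, adjusted p 0.0173 by edgeR), at 70.5, 67.1 and 68.5 CPM in Dicer1-ifKO against 88.8, 78.4 and 89.2 CPM in WT. The median log2 fold change of the 11 was -0.02, with 5 positive, against 49% of all genes tested. Groups did not overlap in 2 that lay higher (Camk2a and Zbtb20) and in 1 that lay lower (Rgs14), against 7.99% and 8.08% of all genes tested. The 7 astrocyte markers summed to 3551 to 3705 CPM in Dicer1-ifKO and 3343 to 3521 CPM in WT, and Slc1a2 made up the larger part, at 2050 to 2213 CPM in Dicer1-ifKO and 1799 to 2030 CPM in WT. Another of them, Aqp4, lay lower without overlap, at 117 to 131 CPM in Dicer1-ifKO and 136 to 142 CPM in WT. The median log2 fold change of the 7 was 0.01, and none passed. At an unadjusted p below 0.05 stood 2 of the 7, against 10.4% of all genes tested. Both sums lay higher in every Dicer1-ifKO library than in any WT library, and so did Camk2a and Slc1a2 taken alone. The sums were not taken without these genes, and the part of either sum in the results was not tested. The sums of thalamic, inhibitory neuron, oligodendrocyte, microglial and endothelial markers overlapped between genotypes. WT replicate 1 was the shallowest library, and its score on the leading principal component was 19.4, where the other libraries scored between -8.66 and 0.28. Across 14078 genes, which are not independent of each other, the log2 fold change followed transcript length with a Spearman's rho of 0.24, and of 0.13 without that library.

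Calcineurin is a calcium- and calmodulin-dependent serine/threonine phosphatase that is not confined to neurons. It consists of a catalytic A subunit and a calcium-binding B subunit, and is known for its part in long-term depression of hippocampal synapses and for activating NFAT transcription factors. Calcineurin dephosphorylates inhibitor 1 and DARPP-32, the products of Ppp1r1a and Ppp1r1b, which releases PP1 from inhibition, and STEP is in turn switched on by dephosphorylation. STEP removes phosphates from tyrosines of glutamate receptors and of the kinases Fyn and ERK.

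Since Dicer1 makes microRNAs, the 3′ UTRs (the untranslated ends that microRNAs bind) were searched for matches to microRNA seeds. For 14 brain microRNAs, the 7 bases that pair with the seed, bases 2 to 8 of the microRNA, were looked for in the annotated 3′ UTR of each gene's transcript, on the transcript's strand alone. The 14 seeds all differed from each other. The microRNAs whose sites are printed are given first, from RefSeq (GRCm38.p6), with the seed in capitals.
miR-26a-5p: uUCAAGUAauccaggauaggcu
miR-137-3p: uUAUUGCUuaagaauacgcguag
miR-30a-5p: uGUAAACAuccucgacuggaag
miR-138-5p: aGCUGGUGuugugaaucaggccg
miR-134-5p: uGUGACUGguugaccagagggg

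The sites below are all those of the 9 genes in which the match is followed by an A, the longer form of a seed match, together with the second of the miR-26a-5p matches that Ppp3cb and Ppp3r1 share. The matched 7 bases are in capitals with 11 bases on either side, from the GENCODE M21 transcripts (GRCm38).
Ppp3cb, miR-26a-5p: aagaagactctTACTTGAacaaaatccaa
Ppp3cb, miR-137-3p: ttgggtattttAGCAATAagccaaaatac
Ppp3r1, miR-26a-5p: ttaatttaataTACTTGAttcagaaacaa
Ppp3r1, miR-30a-5p: aatgtacctctTGTTTACataatctgcat
Rcan1, miR-134-5p: tgaatgtgtggCAGTCACacaaggacact
Rcan2, miR-138-5p: acatgcacgatCACCAGCattgattttga
Ppp1ca, miR-138-5p: gggctccctccCACCAGCacctgtggtgg
Ptpn5, miR-137-3p: tcattgaatagAGCAATAaacagagcatt

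Matches were unevenly spread over the genes. Rcan1 held matches to 4 of the 14 microRNAs in a 3′ UTR of 1500 nt (miR-128-3p, miR-103-3p, miR-134-5p and miR-181a-5p), where 3′ UTRs of similar length (within 20%) held a median of 2. Ppp1ca held 3 in only 328 nt, where 3′ UTRs of similar length held a median of 0. Ppp3r1 held 3 in 2069 nt, Ppp3cb 2 in 2120 nt, Rcan2 2 in 1927 nt and Ptpn5 2 in 1030 nt, against medians of 3, 3, 2 and 1 in 3′ UTRs of similar length. Ppp1r1a held 1, to miR-128-3p, in 665 nt, against a median of 1. Ppp3ca held none of the 14 in 2502 nt, where 3′ UTRs of similar length held a median of 3, and Ppp1r1b held none in 726 nt, against a median of 1.

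Such matches are common. TACTTGA, the miR-26a-5p match of Ppp3cb and Ppp3r1, was present in 9.98% of the 13055 3′ UTRs of tested genes and in 14.5% of those about as long as that of Ppp3cb. AGCAATA, the miR-137-3p match of Ppp3cb, Rcan2 and Ptpn5, was present in 9.61% of all, and CACCAGC, the miR-138-5p match of Rcan2 and Ppp1ca, in 13.4% of all and in 3.64% of those about as long as that of Ppp1ca. TGTTTAC, the miR-30a-5p match, was present in 14.4% and CACTGTG, the miR-128-3p match of Rcan1, Ppp1r1a and Ptpn5, in 20.6%. The 7 genes with a match to any of the 14 microRNAs had log2 fold changes (Dicer1-ifKO over WT) of -0.14 to 0.08. The 2 without a match to these 14, Ppp3ca and Ppp1r1b, had -0.04 and 0.09. A match describes these letters only.

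Calcineurin subunit mRNAs were the most abundant of the set. Scaled to transcript length, Ppp3ca stood at 411 ± 2.98 CPM per kb in Dicer1-ifKO and 422 ± 5.52 CPM per kb in WT (SD, n = 3 each), and Ppp3r1 followed at 284 ± 8.49 CPM per kb in Dicer1-ifKO and 290 ± 2.13 CPM per kb in WT. Over all 6 libraries the order of mean levels per kb went on with Ppp3cb at 96.2, Ppp1ca at 77.4, Ppp1r1a at 76.8, Ptpn5 at 42.3, Rcan2 at 31.1, Rcan1 at 13.4 and Ppp1r1b at 11.1 CPM per kb. Ppp1ca and Ppp1r1a had overlapping ranges, 72.2 to 86.2 and 73.6 to 83.7 CPM per kb, and so had Rcan1 and Ppp1r1b, 12.6 to 15.2 and 9.70 to 12.8 CPM per kb. The other neighbours in this order did not overlap in any library. Each level is that of 1 transcript row, which also counts reads that other rows of its gene share.

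**Figure D1:**
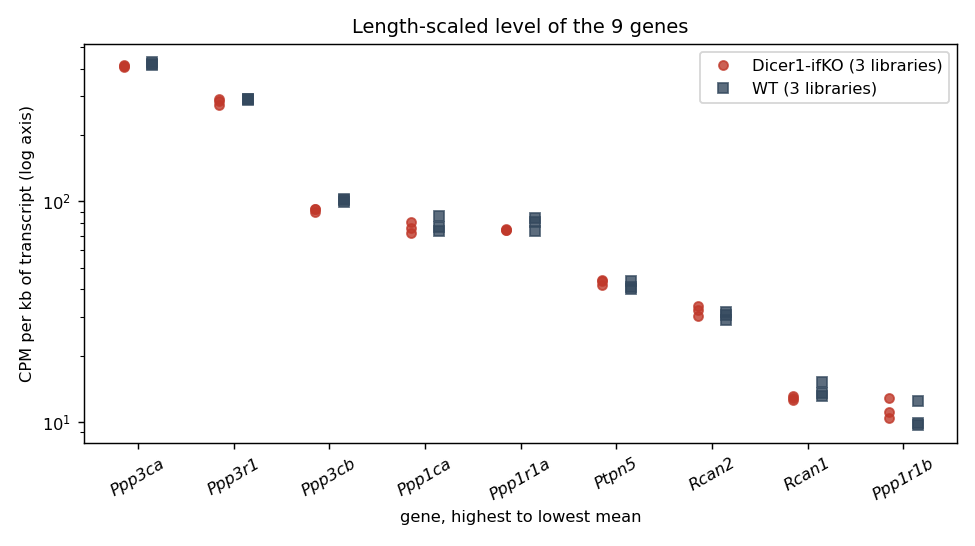
Level of each of the 9 genes in CPM per kb of transcript on a log axis, 1 point per library, Dicer1-ifKO left (circles) and WT right (squares) of each gene, ordered by mean level. The genes span from Ppp3ca, above 400 CPM per kb in each library, to Ppp1r1b, at 9.70 to 12.8 CPM per kb, and the 2 genotypes lie close together for each gene.

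None of the 9 genes passed the test of Dicer1-ifKO against WT. Of all genes tested, 0.161% passed (Benjamini-Hochberg-adjusted p below 0.05 with edgeR), 0.126% higher and 0.0345% lower in Dicer1-ifKO. The lowest adjusted p among the 9 was 0.198 by edgeR, for Ppp3cb, and DESeq2 called none of the 7 to which it gave an adjusted p. At an unadjusted p below 0.05 stood 1 of the 9, against 10.4% of all genes tested. The median log2 fold change of the 9 was -0.04, against 0.00 for all genes tested, and 3 of 9 were positive, against 49% of all. In 3 of 9 the genotypes did not overlap, all lower in Dicer1-ifKO, against 8.08% of all genes tested lower and 7.99% higher without overlap. The 95% intervals of the 9 fold changes, each taken alone, lay between 0.836-fold and 1.22-fold. As these are bulk samples, fewer cells of a type and less RNA per cell cannot be told apart in any of these values.

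**Figure D2:**
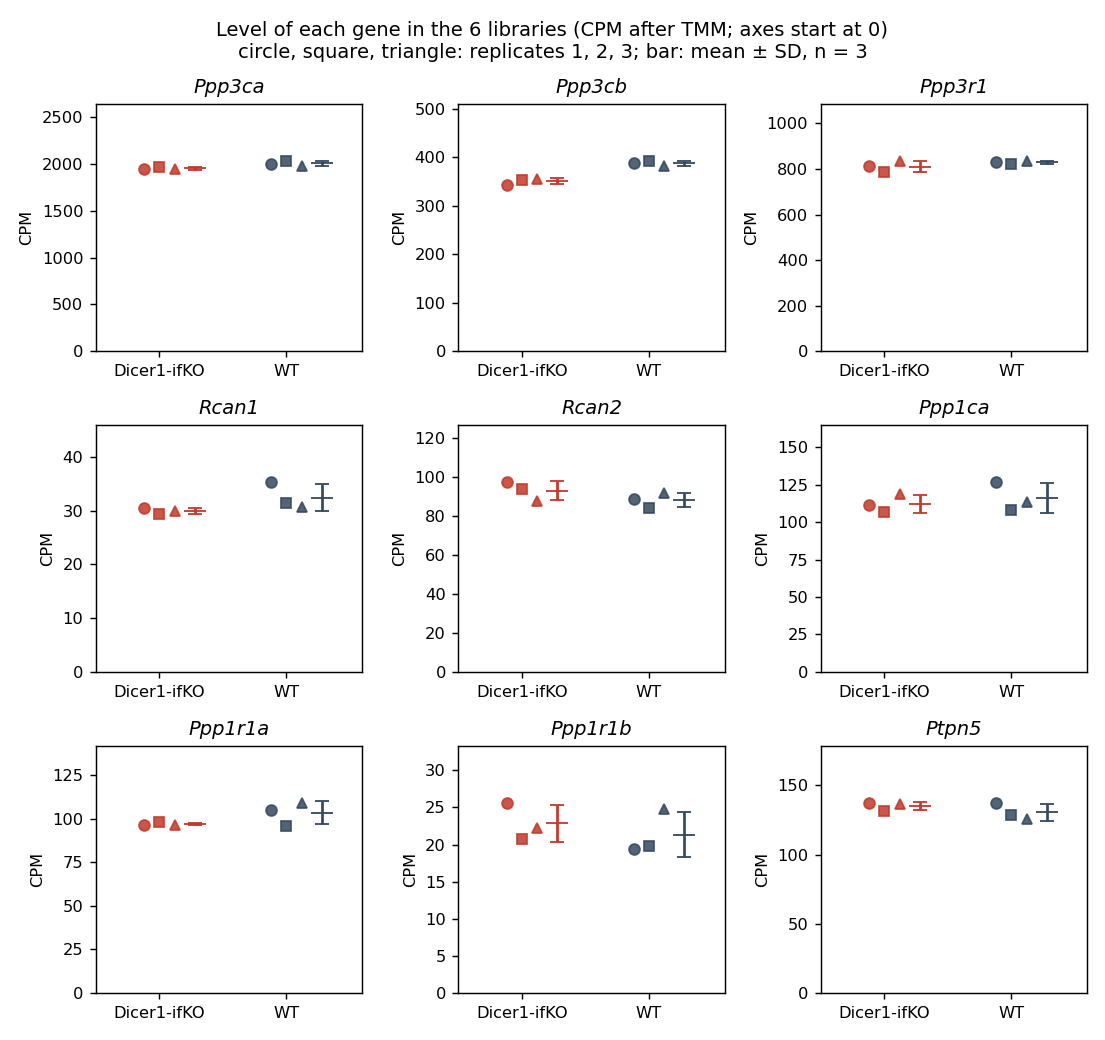
CPM of each gene in every library, Dicer1-ifKO left and WT right, with circles, squares and triangles for replicates 1, 2 and 3 and a bar for the mean ± SD (n = 3); each axis starts at 0. Ppp3cb is the gene with a visible gap between the genotypes, 343 to 355 CPM in Dicer1-ifKO and 382 to 393 CPM in WT.

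Ppp3cb, which encodes the beta isoform of the calcineurin catalytic subunit (chr14:20499364-20546573, GRCm38, minus strand), stood lower in every Dicer1-ifKO library than in any WT library. It had 343, 353 and 355 CPM in Dicer1-ifKO replicates 1, 2 and 3, against 387, 393 and 382 CPM in WT replicates 1, 2 and 3. The means were 350 ± 6.54 CPM in Dicer1-ifKO and 387 ± 5.45 CPM in WT (SD, n = 3 each), so the means lay further apart than the spread within either genotype. The log2 fold change was -0.14 (SE 0.04, 95% interval -0.23 to -0.06), with an unadjusted p of 0.0028 and an adjusted p of 0.198 by edgeR. Among the 17405 genes it ranked 243 by p. Groups did not overlap in 16.1% of all genes tested.

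Ppp3ca encodes the alpha isoform of the catalytic subunit, the predominant one in hippocampal neurons (chr3:136670124-136937727, plus strand). It had 1950, 1970 and 1943 CPM in Dicer1-ifKO replicates 1, 2 and 3, against 2003, 2036 and 1985 CPM in WT replicates 1, 2 and 3. The groups did not overlap, and the nearest values were 1970 CPM in Dicer1-ifKO and 1985 CPM in WT. The difference did not pass (log2 fold change -0.04, SE 0.04, adjusted p 0.806 by edgeR). Ppp3r1, which encodes the calcium-binding B subunit (chr11:17159263-17200375, plus strand), had 814, 785 and 834 CPM in Dicer1-ifKO against 830, 824 and 836 CPM in WT, with overlapping groups. Its log2 fold change was -0.03 (SE 0.04, adjusted p 0.839 by edgeR), and 16.2% of its exon bases also belong to Wdr92 on the same strand, whose reads there cannot be told apart.

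The calcineurin regulators lay on either side of 0. Rcan1 encodes calcipressin, a protein that binds calcineurin and can inhibit it, and lies on chr16:92391953-92466146 on the minus strand. It had 30.58, 29.31 and 29.98 CPM in Dicer1-ifKO replicates 1, 2 and 3, against 35.41, 31.35 and 30.62 CPM in WT replicates 1, 2 and 3. WT replicate 1 stood well above the other libraries, and the groups did not overlap by the narrow margin of 30.58 CPM in Dicer1-ifKO to 30.62 CPM in WT. The log2 fold change was -0.11 (SE 0.07, adjusted p 0.645 by edgeR), and -0.05 without WT replicate 1. Rcan2, a relative of Rcan1 with the same kind of role (chr17:43801851-44039516, plus strand), had 97.7, 93.9 and 87.9 CPM in Dicer1-ifKO against 88.6, 84.4 and 91.9 CPM in WT. The groups overlapped, and its log2 fold change was 0.08 (SE 0.05, adjusted p 0.685 by edgeR).

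PP1 and its inhibitors did not separate by genotype. Ppp1ca, the alpha catalytic subunit (chr19:4192158-4195419, plus strand), had 111, 106 and 119 CPM in Dicer1-ifKO replicates 1, 2 and 3, against 127, 108 and 113 CPM in WT replicates 1, 2 and 3. The groups overlapped, and the log2 fold change of -0.04 (SE 0.06, adjusted p 0.848 by edgeR) turned to 0.02 without WT replicate 1. Exons of Rad9a on the other strand cover 15.3% of its exon bases, and those of AC109138.6 cover 13.0%. The libraries were made with a stranded kit, but the sources used here do not say whether counting used strand, so these reads cannot be told apart.

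Ppp1r1a encodes inhibitor 1, which blocks PP1 when phosphorylated by protein kinase A (chr15:103530279-103537992, minus strand). It had 96.5, 98.0 and 96.6 CPM in Dicer1-ifKO replicates 1, 2 and 3, against 105, 96.1 and 109 CPM in WT replicates 1, 2 and 3. WT replicate 2 lay below all Dicer1-ifKO libraries and the other 2 WT libraries above them. The difference did not pass (log2 fold change -0.09, SE 0.05, 95% interval -0.20 to 0.02, adjusted p 0.571 by edgeR). Without WT replicate 2 it was -0.15, and without WT replicate 3 it was -0.05.

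Ppp1r1b encodes DARPP-32, the dopamine- and cAMP-regulated counterpart of inhibitor 1 that is best known from striatal spiny neurons (chr11:98348404-98357796, plus strand). It was the gene with the lowest level and the widest spread of the 9, at 25.7, 20.8 and 22.2 CPM in Dicer1-ifKO replicates 1, 2 and 3, against 19.4, 19.8 and 24.8 CPM in WT replicates 1, 2 and 3. The groups overlapped, and its coefficient of variation over the 6 libraries was 11.9%, against 1.76% to 6.95% for the other 8 genes. The log2 fold change was 0.09 (SE 0.10, adjusted p 0.809 by edgeR) and ranged from 0.00 without Dicer1-ifKO replicate 1 to 0.22 without WT replicate 3. Exons of 1700003D09Rik on the other strand cover 8.20% of its exon bases.

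Markers of striatal spiny neurons, in which DARPP-32 is abundant, differed widely in level. The 8 tested of 11 listed genes of this kind summed to 126 to 135 CPM in Dicer1-ifKO and 122 to 129 CPM in WT. None passed the test, and 2 had an unadjusted p below 0.05, against 10.4% of all genes tested. Pde10a made up the larger part, at 77.3 to 85.9 CPM in Dicer1-ifKO and 69.0 to 78.6 CPM in WT, and Rgs9 followed at 19.2 to 21.6 CPM in Dicer1-ifKO and 18.9 to 21.9 CPM in WT, both overlapping. Penk, an enkephalin precursor, had the smallest p of the list and lay lower without overlap, at 9.49 to 10.8 CPM in Dicer1-ifKO and 11.3 to 15.4 CPM in WT (log2 fold change -0.37, SE 0.11, adjusted p 0.229 by edgeR). Tac1 stood at 6.62 to 10.3 CPM in Dicer1-ifKO and 8.18 to 11.1 CPM in WT. The dopamine receptor genes Drd1a and Drd2 and the adenosine receptor gene Adora2a stood below 6 CPM in each library, Adora2a also lower without overlap, and Isl1 had 1 read in WT replicate 1 and 0 in the other libraries. The part of these cells in the level of Ppp1r1b was not tested.

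Ptpn5 encodes STEP, the tyrosine phosphatase enriched in striatum, cortex and hippocampus (chr7:47077802-47133684, minus strand). It had 138, 132 and 136 CPM in Dicer1-ifKO replicates 1, 2 and 3, against 137, 129 and 125 CPM in WT replicates 1, 2 and 3. The groups overlapped through WT replicate 1. The difference did not pass (log2 fold change 0.05, SE 0.05, 95% interval -0.05 to 0.15, adjusted p 0.762 by edgeR). Without WT replicate 1 it was 0.09.

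**Figure D3:**
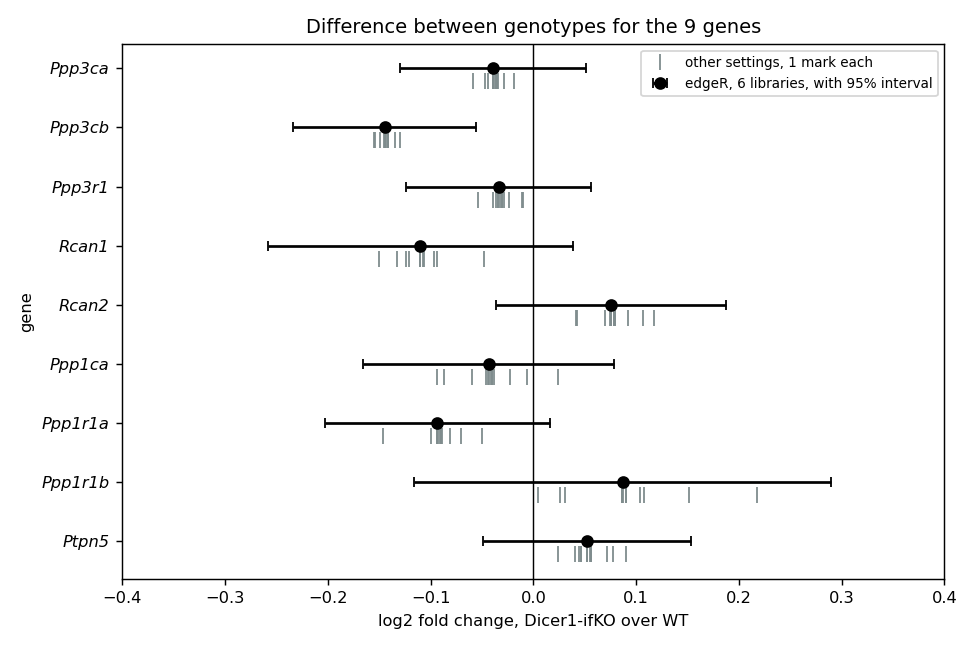
The log2 fold change of each gene, Dicer1-ifKO over WT, with its 95% interval (black) and below it 1 grey mark for each of the other settings tried. The interval of Ppp3cb lies below 0 before adjustment for the number of genes tested, and the marks of Ppp1ca fall on both sides of 0.

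The files list several transcripts for most of these genes, and reads in shared exons are counted for each of them. Of the 41 transcript rows of the 9 genes that were tested, 0 passed in the fit over all 60500 transcripts (adjusted p below 0.05 by edgeR, lowest 0.208), where 0.0777% of all transcripts passed, and 10 had an unadjusted p below 0.05, against 9.44% of all transcripts. Of those 10 rows 7 belonged to Ppp3cb and 3 to Ptpn5. Rows of 1 gene are not independent of each other.

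All 8 rows of Ppp3cb had a negative log2 fold change. The 3 rows that span nearly the whole gene, Ppp3cb-001, Ppp3cb-003 and Ppp3cb-004, had -0.16 each (SE 0.04). Shorter rows from within the gene had similar values, -0.19 (SE 0.07) for Ppp3cb-005 and -0.17 (SE 0.07) for Ppp3cb-006, while Ppp3cb-007 had -0.01 (SE 0.09) with overlapping groups. The other 7 rows did not overlap, all lower in Dicer1-ifKO, against 7.65% of all transcripts lower without overlap, and the rows share reads.

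All 11 tested rows of Ptpn5 were positive. The 3 rows that reach the 3′ end of the gene, Ptpn5-001, Ptpn5-002 and Ptpn5-004, had 0.03 to 0.04 (SE 0.05 each), whereas Ptpn5-003, which ends upstream of it, had 0.14 (SE 0.06, unadjusted p 0.0363, adjusted p 0.487 by edgeR) and did not overlap between groups. The counts of Ptpn5-003 came to 39.9%, 40.8% and 38.5% of those of Ptpn5-002 in Dicer1-ifKO replicates 1, 2 and 3, against 34.4%, 39.8% and 37.0% in WT replicates 1, 2 and 3. These shares overlapped between the genotypes. Ptpn5-010, a short row from within the gene, had 0.25 (SE 0.12, unadjusted p 0.0387, adjusted p 0.497 by edgeR), and its counts came to 7.89%, 8.39% and 8.03% of those of Ptpn5-002 in Dicer1-ifKO against 7.13%, 7.53% and 6.33% in WT, without overlap. In all, 3 of the 11 rows did not overlap, all higher in Dicer1-ifKO, against 7.58% of all transcripts higher without overlap. The largest value, 0.89 (SE 0.37, unadjusted p 0.023, adjusted p 0.439 by edgeR) for Ptpn5-007 at the start of the gene, rested on 13, 17 and 21 reads in Dicer1-ifKO and 5, 10 and 7 in WT.

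**Figure D4:**
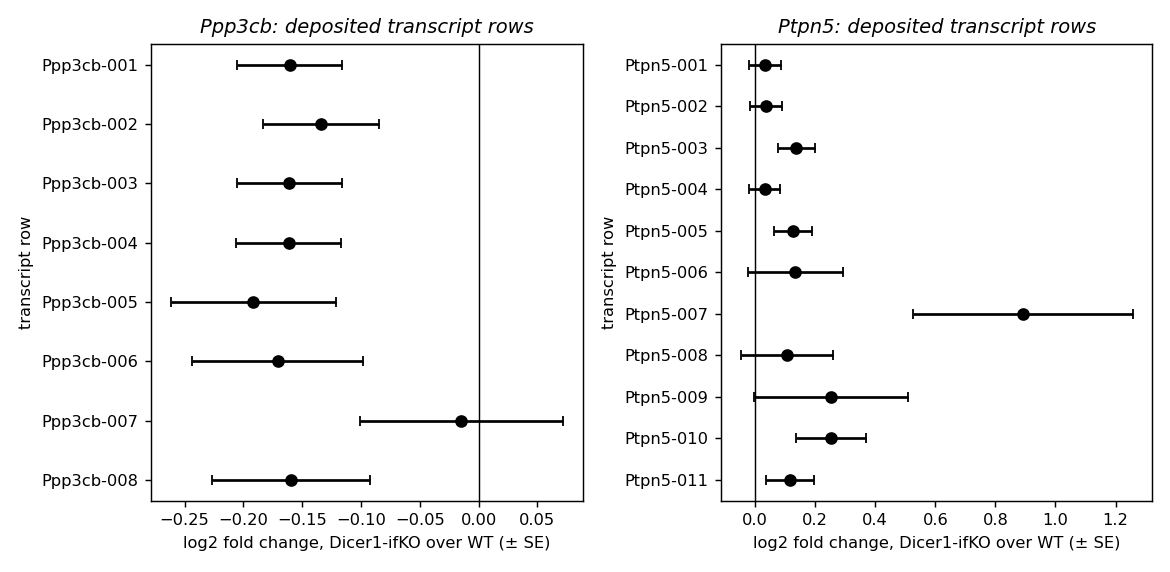
The log2 fold change ± SE (Dicer1-ifKO over WT) of every tested transcript row of Ppp3cb (left, 8 rows) and Ptpn5 (right, 11 rows); the horizontal scales differ. Of the Ppp3cb rows 7 lie between -0.19 and -0.13 and Ppp3cb-007 lies at -0.01, and the Ptpn5 rows lie between 0.03 and 0.89 with widening error for the rows with few reads.

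Rcan1 has a long form and a short form from an internal promoter that calcineurin and NFAT signalling is known to activate. The short row, Rcan1-201, had 450, 488 and 579 reads in Dicer1-ifKO replicates 1, 2 and 3, against 399, 474 and 470 reads in WT replicates 1, 2 and 3. The long row, Rcan1-202, had 471, 528 and 614 reads in Dicer1-ifKO and 416, 498 and 498 in WT. The short row came to 92.4% to 95.5% of the long one in Dicer1-ifKO and 94.4% to 95.9% in WT, and most of the reads are counted in both. Log2 fold changes were -0.14 (SE 0.08) for the short row and -0.13 (SE 0.08) for the long row, and neither passed. The rows of Rcan2 had 0.06 each (SE 0.06 to 0.07), those of Ppp1r1b 0.05 to 0.15 and those of Ppp3ca -0.05 to 0.05, with none at an unadjusted p below 0.05.

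Other genes of these pathways were read from lists chosen with earlier results of these data known, and no list had a gene that passed with all 6 libraries by edgeR. DESeq2 called 1 gene in the lists, Ppia. It gave no adjusted p to Crtc2, Crtc3, Ppp1r11, Dusp4, Ptpn1, Dusp6 and Grin2b, which are named below. Of 11 tested other calcineurin subunits, regulators and anchors, 2 were positive and 3 had an unadjusted p below 0.05. Of all genes tested, 49% were positive and 10.4% had an unadjusted p below 0.05. The median log2 fold change of this list was -0.08. Ppia and Fkbp1a encode cyclophilin A and FKBP12, the immunophilins through which cyclosporin and FK506 inhibit calcineurin. Ppia had 621, 604 and 621 CPM in Dicer1-ifKO against 721, 645 and 714 CPM in WT, without overlap (log2 fold change -0.17, SE 0.05, adjusted p 0.176 by edgeR). It passed with DESeq2 (adjusted p 0.048) and without WT replicate 2 (edgeR adjusted p 0.0279), its adjusted p reached 0.491 over the other alternatives. Ppia is known to have many processed pseudogenes, and how far its counts share reads with them was not tested. Fkbp1a had 421, 414 and 432 CPM in Dicer1-ifKO against 514, 450 and 461 CPM in WT, also without overlap (log2 fold change -0.17, SE 0.05, adjusted p 0.203 by edgeR). Without WT replicate 1 the log2 fold change of Fkbp1a was -0.11. Of the 11 genes of this list, 4 lay lower and 0 higher without overlap, against 8.08% and 7.99% of all genes tested. Pcp4, a small calmodulin-binding protein, had -0.16 (SE 0.06, adjusted p 0.331 by edgeR). Ppp3cc, the remaining catalytic subunit, named here for its role and after its values were seen, had 32.4, 34.5 and 29.3 CPM in Dicer1-ifKO against 31.0, 29.2 and 31.6 CPM in WT, with overlapping groups (log2 fold change 0.07, SE 0.07).

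Of 13 tested calcineurin substrates and NFAT genes, 9 were positive and 1 had an unadjusted p below 0.05, against 49% and 10.4% of all genes tested. The median log2 fold change was 0.05. The 3 with the smallest p were the CREB coactivators that calcineurin dephosphorylates. Crtc2 had 31.6, 34.4 and 34.3 CPM in Dicer1-ifKO and 29.5 CPM in each of the 3 WT libraries (log2 fold change 0.18, SE 0.07, adjusted p 0.331 by edgeR). Crtc3 had 0.14 (SE 0.07, adjusted p 0.541 by edgeR) and Crtc1 0.07 (SE 0.05, adjusted p 0.72 by edgeR), both with overlapping groups. Crtc3 had 0.09 without WT replicate 1, and Crtc1 had 0.00 without Dicer1-ifKO replicate 3.

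Of 27 tested other PP1 catalytic, inhibitor and targeting subunits, 10 were positive and 4 had an unadjusted p below 0.05, against 49% and 10.4% of all genes tested. The median log2 fold change was -0.03. The 3 with the smallest p were Ppp1r11, encoding inhibitor 3 of PP1, at -0.17 (SE 0.07), Ppp1r2, encoding inhibitor 2, at -0.12 (SE 0.05), and the beta catalytic subunit Ppp1cb at -0.10 (SE 0.05). Adjusted p for these 3 lay between 0.337 and 0.461 by edgeR. Ppp1r2 had 123, 126 and 121 CPM in Dicer1-ifKO against 138, 138 and 127 CPM in WT, without overlap. Of the 27 genes, 2 lay lower and 1 higher without overlap, against 8.08% and 7.99% of all genes tested.

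Of 29 tested PP2A, PP4, PP5, PP6 and PP2C genes, 8 were positive and 4 had an unadjusted p below 0.05, against 49% and 10.4% of all genes tested. The median was -0.03. Ppp2ca, the alpha catalytic subunit of PP2A, had 298, 299 and 300.2 CPM in Dicer1-ifKO against 335, 317 and 332 CPM in WT (log2 fold change -0.13, SE 0.04, adjusted p 0.26 by edgeR). The PP2A regulatory subunit Ppp2r5b had -0.13 (SE 0.05) and Set, a PP2A inhibitor, -0.11 (SE 0.05), both without overlap between groups. With the longest transcript, Set had -0.04 (SE 0.07). Of the 29 genes, 6 lay lower and 3 higher without overlap, against 8.08% and 7.99% of all genes tested.

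Of 19 tested tyrosine and MAP kinase phosphatases related to STEP by family or substrate, 13 were positive and 2 had an unadjusted p below 0.05. The shares over all genes tested were 49% and 10.4%, and the median of this list was 0.06. Dusp4, a nuclear MAP kinase phosphatase, had 14.0, 15.3 and 14.4 CPM in Dicer1-ifKO against 11.9, 11.3 and 13.2 CPM in WT (log2 fold change 0.26, SE 0.10, adjusted p 0.324 by edgeR). Ptpn1, encoding PTP1B, had 0.15 (SE 0.06), and the ERK phosphatase Dusp6 had -0.14 (SE 0.07). Of the 7 substrates of STEP 4 were positive and 0 had an unadjusted p below 0.05, against the same 49% and 10.4%, with the median at 0.01. Gria2, an AMPA receptor subunit, had 0.10 (SE 0.06) and the kinase p38 alpha, Mapk14, 0.05 (SE 0.05). The NMDA receptor subunit Grin2b had 0.04 (SE 0.13), a value that turned negative without Dicer1-ifKO replicate 2, without WT replicate 1 and with an offset for transcript length and GC content.

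**Figure D5:**
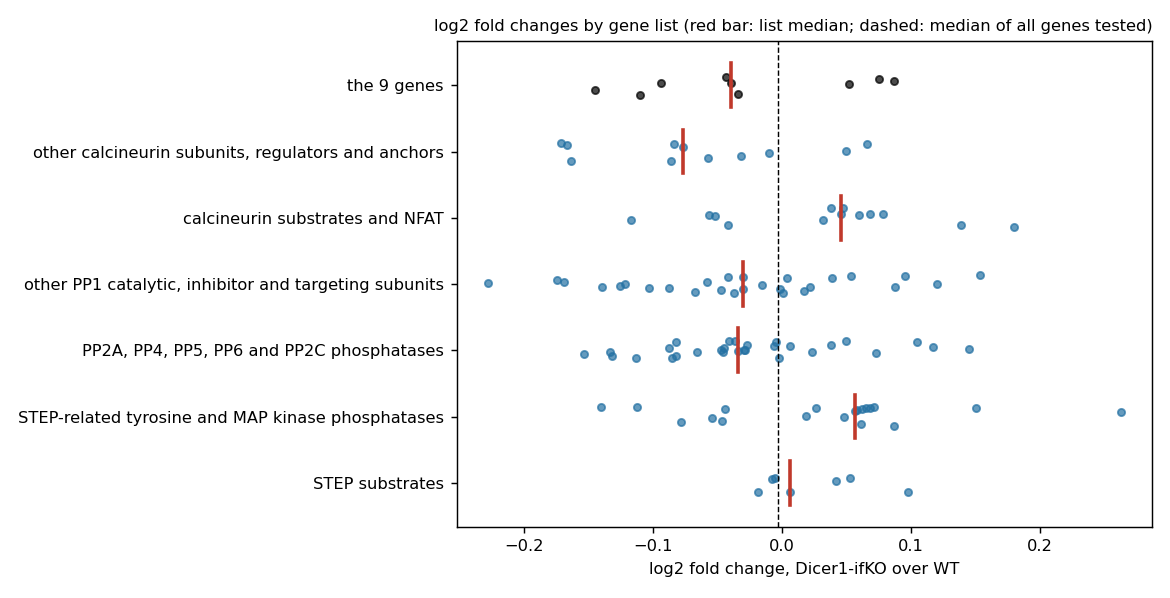
The log2 fold change (Dicer1-ifKO over WT) of each gene in the 9-gene set (top, black) and in 6 lists of related genes (blue), with a red bar at each list's median and a dashed line at the median of all genes tested. List medians lie between -0.08 and 0.06, and the genes of each list scatter on both sides of 0.

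The genes whose level most resembled that of each member over the 6 libraries were found by Pearson's r of log2 CPM, as a description. Ppp3ca was most alike Hnrnpa2b1 (r = 0.997), Ppp3cb most alike Fgf10 (r = 0.996) and Ptpn5 most alike Dach2 (r = 0.983). With only 6 points, 284 genes had an r above 0.9 with Ppp3cb, 188 with Ppp3ca and 141 with Ptpn5. For the other genes the most alike were Cspg4 with Ppp3r1 (r = 0.991), 0610007P14Rik with Rcan1 (r = 0.994), 1700006D18Rik with Rcan2 (r = 0.991), Ngfrap1 with Ppp1ca (r = 0.999), Gm5531 with Ppp1r1a (r = 0.994) and Mfn1 with Ppp1r1b (r = 0.982). All genes were measured in the same 6 libraries.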

How the data were processed

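DESeq2, SAMtools 0.1.18, TopHat2 2.0.6 with Bowtie2 2.0.5, and CASAVA 1.8.2 are named in the submitters' processing notes, with GRCm38 (mm10); the counter, annotation release, strand setting and filters were not given in the sources used here. Each deposited table gives 76938 transcripts, with raw and normalised read counts per the file headers. In the deposited normalised signal, every count had been divided by a factor of its library (0.97, 1.13 and 1.28 for Dicer1-ifKO, 0.72, 0.99 and 1.01 for WT), and this signal was not tested.

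The members and lists were chosen with earlier results of these data known. For each symbol the transcript of highest mean count in the 6 libraries was used. Under R 4.3.3, edgeR 4.0.16 compared the genotypes (quasi-likelihood test with TMM scaling and no covariate, after filterByExpr at a minimum count of 10) over 17405 genes, and Benjamini-Hochberg-adjusted p below 0.05 passed; SE was derived from log2 fold change and F, and the fits were tested on simulated data. Alternatives were DESeq2 1.42.0 (its test, and its size factors in edgeR), no filter, each library left out, a replicate block, transcripts summed or the longest taken, and an offset for length and GC content. Genes with the 3 smallest p of each pathway list were named, and for each member the gene most alike; marker genes were named after their values were seen. Replicates are separate pools of mice per the labels, and no pair of one genotype agreed within sampling noise (chi-square per degree of freedom 1.75 to 4.35).

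Lengths and 3′ UTRs came from the GENCODE M21 transcript of the same symbol whose ends differed by at most 500 nt in sum (5 members at 0 nt, Rcan2 at 463 nt). Among members, Ppp1ca, Ppp1r1a and Ptpn5 differed by 94, 11 and 7 nt. Of 15 microRNAs listed, 14 were searched (mmu-let-7a-5p, mmu-miR-9-5p, mmu-miR-26a-5p, mmu-miR-29a-3p, mmu-miR-30a-5p, mmu-miR-103-3p, mmu-miR-125b-5p, mmu-miR-128-3p, mmu-miR-132-3p, mmu-miR-134-5p, mmu-miR-137-3p, mmu-miR-138-5p, mmu-miR-181a-5p, mmu-miR-218-5p). The microRNA left out, mmu-miR-124-3p, had no mature sequence in the reference used. Small RNA was not analysed here.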

Additional observations from a re-analysis of the deposited data

How the results depend on the processing

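Under each of the 13 alternatives 0 of the 9 genes passed, and 114 of 115 values (DESeq2 gave Rcan1 and Ppp1r1b no adjusted p) kept their direction; Ppp1ca had 0.0242 without WT replicate 1, and -0.0933 to 0.0242 over the libraries left out. The lowest adjusted p was 0.0594, for Ppp3cb with DESeq2, and over the other alternatives it reached 0.602 with edgeR for a log2 fold change of -0.155 to -0.13 over all of them. Grin2b had -0.012 with the length and GC offset, and -0.15 to 0.1691 with 1 library left out, negative where that was WT replicate 1 (-0.08) or Dicer1-ifKO replicate 2 (-0.15). Of all genes, 28 passed with edgeR, but 68 with DESeq2, 151 without a filter on low counts and 7 with summed transcripts, and with 1 library left out between 6 and 105: the 6 were without Dicer1-ifKO replicate 1, the 105 without WT replicate 2, and leaving out WT replicate 3 gave 14 and WT replicate 1 or Dicer1-ifKO replicate 2 gave 18. In the list of other calcineurin genes 1 passed with DESeq2, and 0 to 1 with 1 library left out; the gene was Ppia, at -0.17 with DESeq2 and -0.22 without WT replicate 2. Replicate numbers were not taken as pairs. Deviations of same-numbered libraries correlated at -0.067, 0.073 and -0.111, and not every library correlated best with its own number. As deviations were taken from the mean of each genotype, these correlations depend on each other. They cannot decide whether libraries of the same number were handled together. With the replicate block 22 of all genes passed and Ppp3cb had -0.14 (adjusted p 0.254 by edgeR). The cause of these differences was not tested. At this depth and with 3 libraries per genotype, the 95% intervals of the 9 genes reach 0.836-fold and 1.22-fold.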
